A study of Mus musculus with 12 samples.

Results

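Chromatin accessibility at 10 immediate-early genes of neuronal activity (Fos, Fosb, Egr1, Egr2, Egr3, Egr4, Npas4, Nr4a1, Nr4a3 and Arc) was compared between WT and SgshKO mice in 3 sorted fractions of the forebrain. Every peak whose deposited gene name was one of the 10 was taken: 441 of the 281974 peaks in the 3 tables, of which 156 of 107627 were in NeuN+ nuclei, 185 of 91770 in microglia and 100 of 82577 in Olig2+ nuclei. The gene name is that of the nearest transcription start, so a peak given to a gene is near it and was not shown to act on it. All mice were C57BL/6 and 4 months old by their labels, and the only labelled difference is the genotype, WT or SgshKO, a knockout of Sgsh, which encodes a lysosomal sulfatase that breaks down heparan sulfate and whose loss causes Sanfilippo syndrome type A. Microglia were sorted as live CD11b+, CD45 low, CX3CR1+ cells, whereas neuronal nuclei (PU.1-, OLIG2-, NEUN+) and oligodendrocyte-lineage nuclei (PU.1-, OLIG2+, NEUN-) came from lightly formaldehyde-fixed tissue. Cell type and handling therefore cannot be told apart when the sorts are compared. Each of the 6 groups held 2 libraries of ATAC-seq, an assay in which a transposase cuts and tags open chromatin. The labels number the replicates but do not say whether they are separate animals or pools, so p-values measure the spread between these libraries, which may be partly technical, and an exact permutation test of 2 against 2 libraries cannot give a p below 0.333. No open-chromatin value checks the Sgsh deletion, and none is given for it.

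Immediate-early genes are switched on within minutes of a stimulus without new protein synthesis. In neurons, calcium entry through synaptic receptors and voltage-gated channels leads to phosphorylation of CREB and SRF-bound cofactors already sitting at the promoters, and MEF2 and AP-1 sites at nearby enhancers add to the response. Most of the products are transcription factors: Fos and Fosb form AP-1 with Jun proteins, Egr1 to Egr4 are zinc-finger factors, Npas4 is a neuron-restricted bHLH-PAS factor, and Nr4a1 and Nr4a3 are orphan nuclear receptors. Arc is the exception, a capsid-like synaptic protein that drives AMPA receptor endocytosis. In microglia the same Fos, Egr and Nr4a genes respond to injury, growth factors and tissue dissociation, and Egr2 is also the myelination factor of Schwann cells.

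The libraries held 10771659 to 11804222 mapped tags for microglia, 14326703 to 17706971 for neurons and 15044194 to 19555924 for the Olig2+ sort, and values below are tags per 10000000 mapped tags in a peak ("normalized tags"). The share of tags in peaks differed with genotype in NeuN+ nuclei, 26.7% and 25.9% in WT against 21.5% and 21.2% in SgshKO, varied within genotype in microglia (55.8% and 48.7%, against 67.4% and 53.7%) and lay between 30.9% and 31.8% in the 4 Olig2+ libraries. The sort labels were checked on start-site peaks of marker genes. All 7 neuronal markers had one in NeuN+ nuclei and none of the astrocyte, endothelial or blood myeloid markers did, 5 of 6 microglial markers had one in microglia (not Aif1), and all 8 oligodendrocyte markers had one in Olig2+ nuclei. Microglia also had one at 4 of 8 oligodendrocyte, 1 of 3 precursor, 2 of 7 neuronal, 2 of 5 astrocyte, 2 of 4 endothelial and 2 of 5 blood myeloid markers. Olig2+ nuclei had one at 4 of 7 neuronal, 1 of 6 microglial and 1 of 5 astrocyte markers, and NeuN+ nuclei at 1 of 6 microglial and 1 of 3 precursor markers. In NeuN+ nuclei the neuronal markers summed to 770 and 689 normalized tags in WT and 392 and 418 in SgshKO, and the 3 oligodendrocyte markers with a peak to 119 and 99.4 against 55.8 and 54.6. Both lists were lower in SgshKO, as were the share of tags in peaks and the start-site peaks described below, and the part of either in those results was not tested. In bulk libraries fewer open cells and less opening per cell cannot be told apart.

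Proximal promoters of these genes were searched for the core of the cyclic AMP response element, the site of CREB. Some are shown because the peaks over them are among those described next. RefSeq (GRCm38.p6) windows from 250 bases before to 50 after a start were held for 7 of the 10 genes (11 windows). Both strands were searched, and capitals mark every match to the cyclic AMP response element core TGACG, the EGR site GCGNGGGCG, the TATA box TATAAA or the CArG box, the site of SRF. Windows run 5′ to 3′ along the gene.
Nr4a3, chr4:48045055-48045354, + strand: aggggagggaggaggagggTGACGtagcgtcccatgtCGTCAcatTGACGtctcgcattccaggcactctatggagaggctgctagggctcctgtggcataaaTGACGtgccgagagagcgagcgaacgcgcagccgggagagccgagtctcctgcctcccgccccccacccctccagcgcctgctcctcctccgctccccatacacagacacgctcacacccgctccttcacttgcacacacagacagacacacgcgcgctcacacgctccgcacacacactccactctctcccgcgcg
Nr4a1, chr15:101266596-101266895, + strand: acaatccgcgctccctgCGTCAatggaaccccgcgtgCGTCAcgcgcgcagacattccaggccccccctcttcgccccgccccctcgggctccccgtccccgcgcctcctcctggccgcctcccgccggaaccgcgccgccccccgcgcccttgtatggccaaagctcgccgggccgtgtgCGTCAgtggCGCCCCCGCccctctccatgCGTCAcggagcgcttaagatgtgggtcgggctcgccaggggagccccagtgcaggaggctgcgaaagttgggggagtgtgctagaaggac
Npas4, chr19:4989922-4990221, - strand: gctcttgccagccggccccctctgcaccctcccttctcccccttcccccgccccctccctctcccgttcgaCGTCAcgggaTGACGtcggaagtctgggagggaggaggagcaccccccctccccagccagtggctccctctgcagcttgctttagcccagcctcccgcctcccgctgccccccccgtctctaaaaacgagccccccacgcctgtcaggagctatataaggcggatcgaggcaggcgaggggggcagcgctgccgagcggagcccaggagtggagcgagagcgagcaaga
Egr4, chr6:85513540-85513839, - strand: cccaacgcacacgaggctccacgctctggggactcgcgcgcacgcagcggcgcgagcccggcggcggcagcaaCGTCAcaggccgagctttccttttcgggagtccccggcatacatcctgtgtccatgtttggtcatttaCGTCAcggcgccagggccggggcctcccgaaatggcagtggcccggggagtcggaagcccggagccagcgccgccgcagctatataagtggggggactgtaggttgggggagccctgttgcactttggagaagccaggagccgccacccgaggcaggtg
Fos, chr12:85473640-85473939, + strand: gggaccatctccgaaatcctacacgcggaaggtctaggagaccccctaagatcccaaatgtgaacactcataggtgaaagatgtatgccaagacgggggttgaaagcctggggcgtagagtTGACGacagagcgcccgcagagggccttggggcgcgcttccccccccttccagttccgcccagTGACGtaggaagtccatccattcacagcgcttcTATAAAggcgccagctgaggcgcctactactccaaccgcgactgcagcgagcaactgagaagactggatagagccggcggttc
TGACG was present in 9 of the 11 windows and at all 7 genes, against 20.8% of 32851 RefSeq windows of the same length. Nr4a3 held 4 copies, starting 231, 213, 205 and 147 bases before its start, Nr4a1 held 4, and Npas4 held 2, starting 179 and 169 bases before the start. The full palindrome TGACGTCA, which contains the core on both strands, was in none of the 11 (1.79% of all windows). The CArG box was found only at Egr2 (4 of its windows; 1.63% of all), the EGR site at Fosb and Nr4a1 (5.55% of all), and TATAAA only at Fos (13.6% of all). TGANTCA, the AP-1 site, and the MEF2 box were in none (7.81% and 0.557% of all). The Egr2 windows starting at chr10:67537619, chr10:67537620 and chr10:67537680 overlap and hold the same 2 copies of the core and the same CArG box. Counts of windows therefore repeat these sites, and counts of genes do not. These are matches of letters in short windows and say nothing of binding.

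In NeuN+ nuclei accessibility at many start sites of these genes was lower in SgshKO, as it was at start sites in general. Of 28 start-site peaks (centre within 1000 bp of the start), 12 fell and 1 rose (limma, adjusted p under 0.05, here "called"). Over all 23397 start-site peaks 44.9% fell and 1.74% rose. Both shares depended on the scaling: 9 of the 28 fell against 23.5% of all start-site peaks under in-peak sum scaling, 9 against 28.4% under median of ratios, 9 against 29.8% under edgeR TMM, 5 against 12.2% under quantile normalization, 6 against 9.36% under start-site scaling and 5 against 8.23% by DESeq2. The median log2 change was -0.64 for the 28 and -0.53 for all start-site peaks. Below 0 were 26 of the 28 and 20123 of all 23397 start-site peaks. When the tags of each gene's start-site peaks were summed, all 10 genes fell, but so did 67.7% of 13395 genes, and 1.83% rose. The order of the changes among the 10 is what the members add, from Nr4a3 (-1.02 ± 0.11 SE) down to Egr2 (-0.34 ± 0.14 SE).

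**Figure D1:**
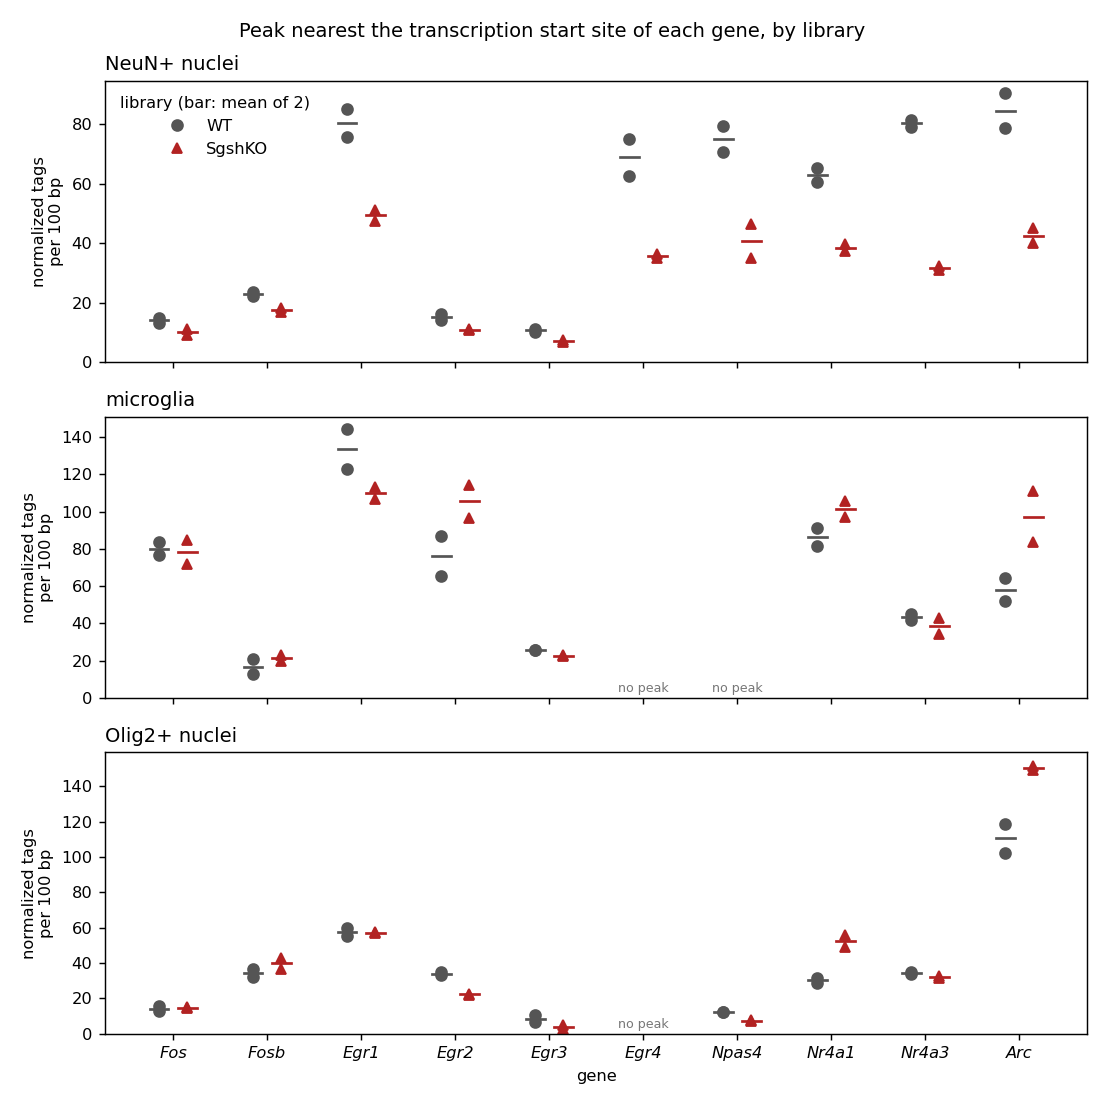
Normalized tags per 100 bp in the peak nearest each gene's start site, in every library (points) with the mean of the 2 libraries (bar), for WT (circles) and SgshKO (triangles). In NeuN+ nuclei both SgshKO libraries lie below both WT libraries at all 10 genes (Fos, Fosb and Egr2 turn to a higher mean under start-site scaling). The share of all start-site peaks separated in this way was not counted, but 20123 of 23397 had a change below 0 there. In Olig2+ nuclei the SgshKO libraries lie above at Arc, Nr4a1 and Fosb, and in microglia the genes split. Nearest peaks of different sorts are not always at the same position.

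Both AP-1 genes had weak promoter peaks in neurons. Fos at -34 bp (distances are from the start site, negative upstream) held 37.4 and 33.3 normalized tags in WT and 27.9 and 23.5 in SgshKO. The groups did not overlap, but the change of -0.45 was not called (adjusted p = 0.10, limma). The peak beside it, at -327 bp (chr12:85473452-85473675), held 47.6 and 50.8 against 14.7 and 33.7 and fell by 1.11 (adjusted p = 0.0053), with its SgshKO libraries far apart. Fosb at -328 bp held 57.2 and 61.0 against 43.3 and 47.0, and its change of -0.38 was not called (adjusted p = 0.078). Fosb is induced more slowly than Fos and its protein persists longer. Under start-site scaling both the -34 bp and the -328 bp values turned positive (0.08 and 0.15).

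Of the EGR genes, Egr1 and Egr4 had strong neuronal promoters and Egr2 and Egr3 weak ones. Egr1, a widely used marker of recent neuronal firing, held 306 and 273 normalized tags at -428 bp (chr18:34860600-34860959) in WT and 172 and 185 in SgshKO. This was a fall of 0.70 (limma, adjusted p = 2.7e-05), and the call was lost under quantile (-0.12) and start-site scaling (-0.16). Egr4, a member largely limited to neurons, held 163 and 136 at -179 bp (chr6:85513661-85513876) against 78.9 and 75.55, a fall of 0.93 (adjusted p = 3.8e-05). Every SgshKO library of both was below every WT library. Egr2 at -86 bp (32.85 and 28.8 against 22.3 and 21.6; -0.47, adjusted p = 0.10) and Egr3 at +74 bp (27.2 and 24.3 against 18.2 and 16.5; -0.54, adjusted p = 0.080) did not pass. Egr3 fell at -590 bp, from 51.55 and 46.9 to 23.7 and 20.95 (-1.11, adjusted p = 4.8e-04).

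Npas4, which is induced by calcium alone and regulates inhibitory synapse number, had one of the strongest neuronal promoters. Its peak at -130 bp (chr19:4989979-4990223) spans both TGACG copies and held 195 and 173 normalized tags in WT and 114 and 85.7 in SgshKO, a fall of 0.89 (adjusted p = 7.7e-05) that was lost under quantile normalization (-0.33). A weaker peak at -997 bp fell by 1.02, from 56.1 and 54.2 to 23.7 and 29.8. The other 2 start-site peaks of Npas4 were below 0 and were not called.

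Nr4a3, which encodes NOR-1, had the largest start-site decrease of the 28 peaks, and also their only increase. At -225 bp (chr4:48044973-48045188) it held 171 and 176 normalized tags in WT and 69.8 and 67.3 in SgshKO, a fall of 1.33 ± 0.12 SE (adjusted p = 8.0e-07). This peak spans the 4 TGACG copies of the window printed above. The increase was in a weak peak inside the gene, -654 bp from another annotated start (chr4:48050393-48050791), from 7.93 and 10.2 to 16.05 and 16.5 (0.79, adjusted p = 0.043). Nr4a1, which encodes NUR77, held 190 and 177 at -92 bp (chr15:101266609-101266900) against 116 and 109, a fall of 0.70 (adjusted p = 1.1e-04) that was lost under quantile (-0.14) and start-site scaling (-0.16) and by DESeq2 (-0.49).

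Arc was lower at all 3 of its start-site peaks. The main one, at -120 bp (chr15:74672587-74672794), held 188 and 164 normalized tags in WT and 94.2 and 83.2 in SgshKO, a fall of 0.98 ± 0.12 SE (adjusted p = 1.4e-05). The peak at -964 bp fell by 0.63 and that at +630 bp, in an exon, by 0.90. Summed over the 3, Arc held 279 and 257 against 146 and 145, a change of -45.6%. The start-site sums changed by -50.6% at Nr4a3, -46.8% at Egr4, -46.5% at Egr3, -45.7% at Npas4, -40.1% at Fos, -38.3% at Nr4a1, -34.7% at Egr1, -25.7% at Fosb and -20.7% at Egr2.

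The median change of all NeuN+ peaks was -0.23 as scaled here and 0.05, -0.03, -0.08 and 0.27 under in-peak sum, median-of-ratios, quantile and start-site scaling. Of the 10 start-site sums, 2 were above 0 under in-peak sum, median-of-ratios, quantile and edgeR TMM scaling, and the median of the 10 was then -0.26, -0.25, -0.25 and -0.25, where that of all genes was -0.02, -0.01, -0.03 and -0.0090. Start-site sums of Arc, Egr4, Npas4 and Nr4a3 remained called under in-peak sum, median-of-ratios, quantile and edgeR TMM scaling, and the other 6 were then not called, while 10.2%, 9.496%, 9.98% and 10.2% of all genes were lower. DESeq2 called 0 of 10, with 4 at an unadjusted p under 0.05, and 1.34% of all genes lower. Fos, Egr1, Egr3 and Nr4a1 were called in each fit that left out 1 library, as were those 4. Of single peaks, Nr4a3 at -225 bp, Arc at -120 bp and Egr4 at -179 bp were called under every scaling and by all 3 tools. Without WT replicate 1 or 2 the 13 single-peak calls were 8 and 8. Without either SgshKO library limma called no NeuN+ peak. The median change of the 28 start-site peaks was -0.59 and -0.65 without SgshKO replicate 1 and 2. That of all start-site peaks was then -0.54 and -0.51.

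Distal peaks (over 1000 bp from the start) were lower more often than distal peaks in general. Of 128, 31 fell and 10 rose, where 12.6% of 84223 distal peaks fell and 12.6% rose; the 31 are 24.2% of the 128. The median was -0.38 against -0.11 for all distal peaks. This split of higher and lower calls turned with the scaling: it was 19 higher and 13 lower under in-peak sum scaling (21.2% and 4.79% of all distal peaks), 17 and 15 under median of ratios (18.2% and 6.15%), 17 and 15 under edgeR TMM (19.3% and 6.35%), 28 and 6 under start-site scaling (31.5% and 1.94%), 13 and 6 under quantile normalization (11.1% and 4.15%) and 3 and 4 by DESeq2 (3.03% and 0.359%). Their median stayed below that of all distal peaks under each of these, although it was above 0 (0.13 against 0.39) under start-site scaling. Summed per gene, 8 of 10 fell and 0 rose, against 24.6% and 20.1% of 15497 genes, and Arc, Fosb, Npas4 and Nr4a1 were called lower under each scaling run on sums, by edgeR and DESeq2 and without any 1 library. The 41 single-peak calls were 15 without WT replicate 1, 20 without WT replicate 2 and 0 without either SgshKO replicate. The distal change was above the start-site change in 9 of the 10 genes, as in 79.0% of 10163 genes with both.

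Arc accounted for the largest distal decreases. It had 21 distal peaks, of which 10 fell and 1 rose, more than any other member. The peak at -4513 bp (chr15:74676957-74677210) held 40.8 and 52.5 normalized tags in WT and 14.7 and 13.3 in SgshKO (-1.66, adjusted p = 3.9e-05). At +4091 bp, where the gene ends, 18.1 and 20.3 became 5.58 and 6.98 (-1.48, adjusted p = 0.0013), and +3666 bp fell by 1.40. Its strongest distal peak, at -6741 bp (chr15:74679205-74679417), in the region of the synaptic activity response element, held 88.9 and 77.4 against 54.4 and 49.5 (-0.67, adjusted p = 0.0031), and the neighbour at -6407 bp fell by 1.15. The call at -6741 bp was lost under in-peak sum (-0.37), quantile (-0.22) and start-site scaling (-0.13), by DESeq2 (-0.46) and without WT replicate 1, and those at +4091 and +3666 bp were lost by DESeq2. No SgshKO library of these 5 peaks reached a WT one.

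Npas4 and Nr4a3 were also lower at strong upstream peaks as scaled here. Npas4 at -11960 bp (chr19:5001826-5002037) was nearly as open as its promoter, with 185 and 147 normalized tags in WT, and fell to 93.5 and 86.35 (-0.87, adjusted p = 7.6e-05; -0.31 and not called under quantile normalization). Nr4a3 at -1919 bp (chr4:48043254-48043518) went from 212 and 189 to 124 and 135 (-0.62, adjusted p = 2.7e-04), which was not called under quantile (-0.06) or start-site scaling (-0.09) or by DESeq2 (-0.41). Weak Nr4a3 peaks went the other way: 4 of its 14 distal peaks rose, among them -3452 bp (1.13 and 3.39 to 7.68 and 11.4; 1.76) and -226741 bp (3.40 and 6.78 to 14.7 and 11.4; 1.25), both lost by DESeq2 and without WT replicate 1. Nr4a1 at -20358 bp fell by 0.57, from 142 and 152 to 88.0 and 110, and 2 further Nr4a1 peaks fell. The call at -20358 bp was lost under in-peak sum (-0.28), quantile (-0.0090) and start-site scaling (-0.04), by DESeq2 (-0.35) and without WT replicate 2.

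The strongest distal Fos peak in neurons did not pass the test. This peak at -18525 bp (chr12:85455215-85455515) held 248 and 238 normalized tags in WT and 218 and 230 in SgshKO (-0.11 ± 0.08 SE, adjusted p = 0.30), and its sign turned positive under each other scaling and by edgeR and DESeq2. On either side of the gene the pattern was mixed: +12228 bp fell by 0.86 (154 and 134 to 86.55 and 71.7, adjusted p = 1.1e-04), +14041 bp fell by 0.59, and -37621 bp rose by 0.63 (56.6 and 63.8 to 87.2 and 100.3, adjusted p = 0.0033). Fosb fell at +1329 bp, in its intron (chr7:19308608-19308824; 155 and 132 to 82.4 and 78.7; -0.82, adjusted p = 1.1e-04), and at 2 other peaks. The call at +1329 bp was lost under quantile (-0.27) and start-site scaling (-0.29).

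Each EGR gene had fewer distal calls than Arc or Nr4a3. Egr1 at -1282 bp fell by 0.65 (135 and 120 to 90.0 and 73.0, adjusted p = 0.0015), with 2 more lower and 1 higher among its 17. That call was lost under quantile (-0.10) and start-site scaling (-0.11), by DESeq2 (-0.43) and without WT replicate 1. Egr3 had 4 lower and 1 higher of 21, and its strongest distal peak, at -75516 bp in an intron of Pebp4, did not pass (64.6 and 58.2 against 50.3 and 68.6; adjusted p = 0.80). Egr2 at -54232 bp was the largest distal increase beside Nr4a3 (3.97 and 6.21 to 20.2 and 16.5; 1.69, adjusted p = 8.8e-04). None of the 9 Egr4 distal peaks was called.

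**Figure D2:**
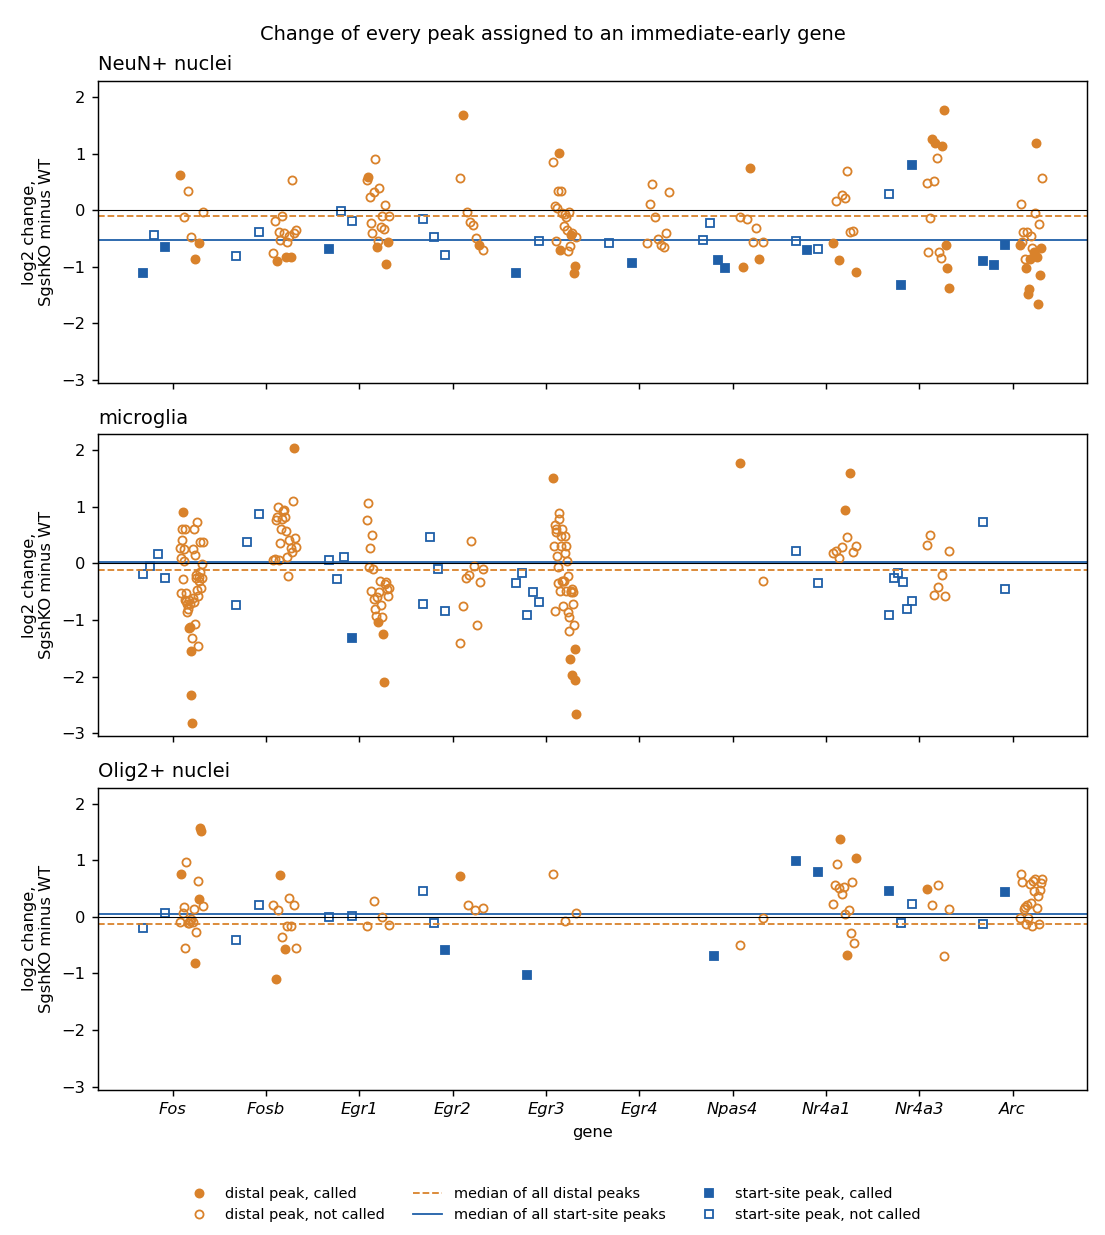
Log2 change (SgshKO minus WT) of every peak of the 10 genes in each sort, start-site peaks as squares and distal peaks as circles, filled where called by limma. Horizontal lines give the median of all start-site peaks (solid) and all distal peaks (dashed) of that sort. In NeuN+ nuclei these are -0.53 and -0.11. There 26 of 28 start-site squares are below 0, as are 20123 of all 23397 start-site peaks. Distal peaks there have more higher than lower calls under the other scalings, but not by DESeq2 (3 higher and 4 lower).

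**Figure D3:**
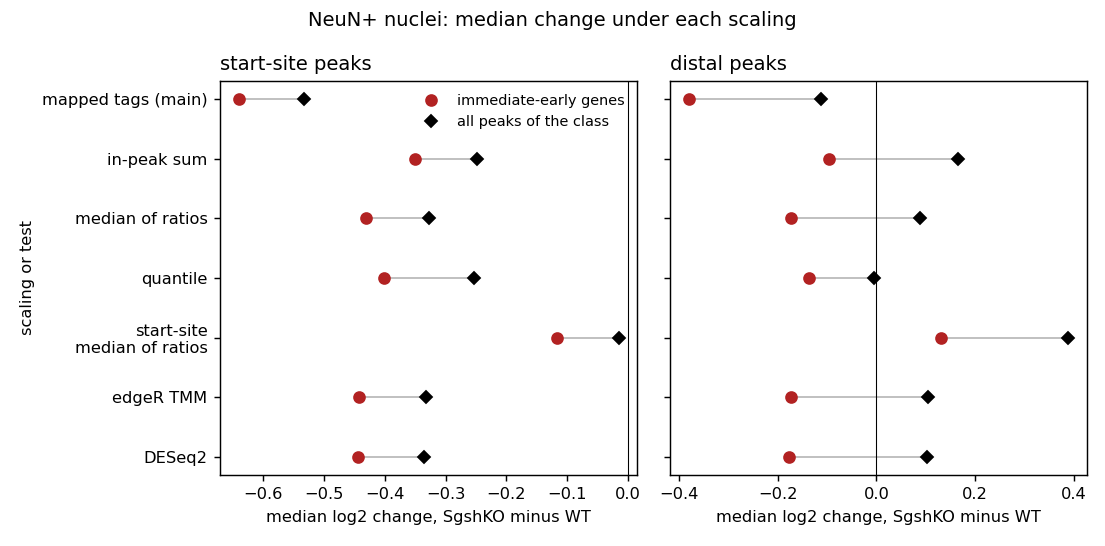
Median log2 change in NeuN+ nuclei of the start-site peaks (left) and distal peaks (right) of the 10 genes (red) and of all peaks of the class (black) under 7 scalings or tests. The medians of the 10 genes lie to the left of those of all peaks in every row, and for distal peaks they lie above 0 under start-site scaling.

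In microglia, as scaled here no peak annotated as promoter passed the test at these genes, and the distal decreases lay downstream of the start sites of Fos, Egr1 and Egr3. Of 30 start-site peaks 1 fell, at Egr1, and 0 rose (4 had an unadjusted p under 0.05; DESeq2 called 1 higher), against 1.20% and 8.59% of 23806. Of 155 distal peaks 13 fell and 6 rose, against 2.69% and 3.81% of 67926. The distal split was 37 lower and 7 higher under in-peak sum scaling (11.3% and 4.23% of all distal peaks), 28 and 8 under quantile (4.82% and 6.51%), 23 and 7 under start-site (4.78% and 4.55%), 18 and 15 under median-of-ratios (4.31% and 7.30%) and 20 and 16 under edgeR TMM scaling (5.79% and 8.28%). Start-site calls were 4 lower and 0 higher under in-peak sum scaling (7.24% and 9.36% of all start-site peaks), 3 and 1 under quantile (2.98% and 8.67%), and 1 and 2 under start-site (2.54% and 11.0%), median-of-ratios (2.10% and 14.9%) and edgeR TMM scaling (2.94% and 16.2%). In-peak sum scaling moved the median of all microglial peaks from -0.08 to -0.28. On start-site sums only Arc passed, rising 54.5% (150 and 119 to 242 and 177; adjusted p = 0.030), while 21.2% of 13128 genes rose and 3.24% fell. This Arc call was lost under in-peak sum, median-of-ratios, quantile and edgeR TMM scaling, by DESeq2 and without either WT library or SgshKO replicate 1. The calls then went the other way: Fos, Egr1, Egr3 and Nr4a3 were lower under in-peak sum scaling (19.5% of all genes lower) and under quantile (10.2%), Egr3 and Nr4a3 under median of ratios (7.16%), and Egr3 by edgeR (7.02%) and DESeq2 (2.72%). On distal sums 0 of 8 genes were called by limma (0 at an unadjusted p under 0.05; 2 by edgeR, 1 by DESeq2), against 1.55% higher and 0.335% lower of 13420. Without WT replicate 1 or 2 the distal calls dropped to 2 and 1, and without SgshKO replicate 1 or 2 they rose to 36 and 44. The microglial markers summed to 1423 and 1262 normalized tags in WT and 1699 and 1258 in SgshKO, so these overlapped. Egr4 had no peak and Npas4 no start-site peak in microglia.

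The start sites of the dissociation-responsive genes were wide open in both genotypes. Fos at +55 bp (chr12:85473823-85474067) held 188 and 205 normalized tags in WT and 208 and 175 in SgshKO, overlapping groups (-0.04 ± 0.27 SE). Egr1 at -100 bp held 388 and 330 against 287 and 304 (-0.27 ± 0.26 SE; called lower under quantile normalization, -0.76 with an adjusted p of 0.0086), and Nr4a1 at -58 bp held 274 and 306 against 353 and 326 (0.23 ± 0.26 SE). Promoter changes of the size seen in neurons could pass unseen here, since the standard error at Arc was 0.29 in microglia against 0.12 in NeuN+ nuclei. Egr2 at -61 bp was higher in both SgshKO libraries (186 and 140 against 245 and 206) without passing (adjusted p = 0.32). The 1 called start-site peak, Egr1 at +982 bp in its intron, fell from 53.6 and 50.0 to 19.9 and 20.4 (-1.32, adjusted p = 0.028).

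All 13 distal decreases lay 3000 to 11000 bp past the start of Fos (5 of its 9 peaks there), Egr1 (3 of 7) or Egr3 (5 of 11). All 27 peaks of these genes in that window were below 0, with medians of -1.15, -0.94 and -1.09. The window was drawn after the peaks were seen, so it has no test of its own; 3.03% of all 10494 peaks that far past a start were lower. Fos at +7359 bp (chr12:85481114-85481384) held 11.2 and 13.6 normalized tags in WT and 2.60 and 0 in SgshKO (-2.81, adjusted p = 0.0021). At +6601 bp it went from 22.5 and 31.3 to 4.33 and 4.64 (-2.33), and nearer the gene, at +4110 bp, from 143 and 121 to 63.2 and 54.8 (-1.15, adjusted p = 0.018). Within these 5 called peaks the WT libraries were all above the SgshKO libraries.

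Egr1 and Egr3 had the same arrangement. Egr1 at +6760 bp fell from 131 and 116 to 30.3 and 26.0 (-2.09, adjusted p = 7.0e-05), and at +3233 bp, over its 3′ UTR, from 189 and 176 to 89.2 and 87.3 (-1.04, adjusted p = 0.021). Egr3 at +10306 bp (chr14:70087979-70088224) fell from 17.3 and 14.4 to 2.60 and 0.93 (-2.67, adjusted p = 0.0014). The called peaks in between, at +9701, +8971 and +5532 bp, fell by 2.06, 1.51 and 1.97. Fosb, the other AP-1 gene, went the opposite way: all 11 of its peaks in the window were above 0 (median 0.76) and none was called. Fosb peaks were called higher in other fits, 4 under median of ratios, 4 by edgeR TMM, 2 under quantile, 1 by DESeq2 and 8 without SgshKO replicate 2, and 3 and 4 of the 11 fell below 0 without WT replicate 2 and SgshKO replicate 1. The 27 remained below 0 under every scaling and tool; of the 11 at Fosb, 3 dropped below 0 under in-peak sum scaling and under quantile normalization and 1 under start-site scaling. Left-out WT libraries reduced the 13 calls to 1 each, and leaving out SgshKO replicate 1 raised them to 21. Without SgshKO replicate 2, 2 of the 11 Egr3 peaks rose above 0.

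**Figure D4:**
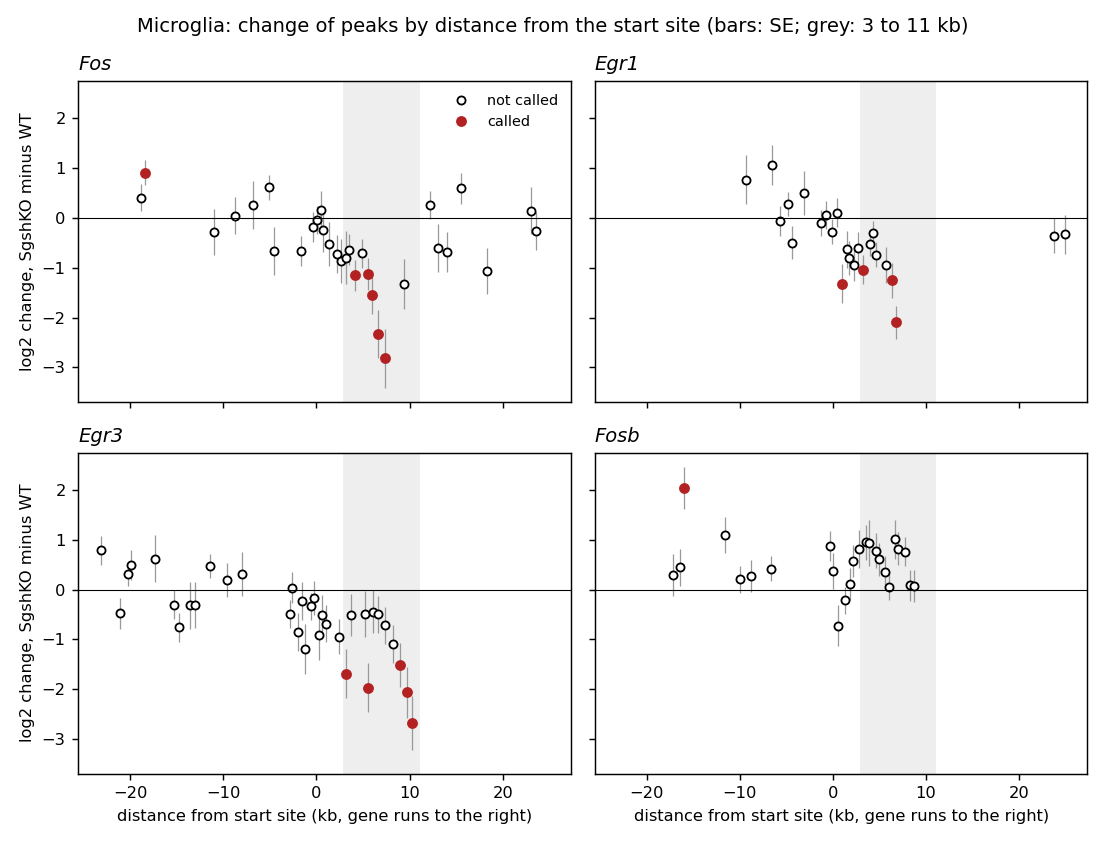
Log2 change in microglia (points, ± SE) against distance from the start site in kb, for peaks within 25 kb of Fos, Egr1, Egr3 and Fosb, filled red where called. Between 3 and 11 kb (grey) the 27 peaks of Fos, Egr1 and Egr3 are all below 0 and the 11 of Fosb all above 0 (3 of the 11 fall below 0 under in-peak sum and quantile scaling, 1 under start-site scaling).

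The 6 distal increases in microglia were spread over 5 genes. The strongest distal Fos peak, at -18454 bp (chr12:85455294-85455579), held 287 and 260 normalized tags in WT and 436 and 610 in SgshKO (0.91, adjusted p = 0.022). The overlapping neuronal peak changed by -0.11 and did not pass. The difference between these sorts, by the test described below, did not pass either (-0.43 ± 0.21 SE, limma, adjusted p = 0.15). The microglial call was lost under quantile normalization (0.39, adjusted p = 0.21) and without WT replicate 1 or 2. Npas4 at -3157 bp rose from 11.2 and 9.32 to 44.15 and 31.6 (1.77, adjusted p = 0.0085) and Nr4a1 at -8306 bp from 6.91 and 13.6 to 24.2 and 40.9 (1.60, adjusted p = 0.026), and both calls were lost without WT replicate 1 or 2. Fosb at -15947 bp had the largest fitted increase (2.04, adjusted p = 0.0016), but its WT libraries held 251 and 36.4 and its SgshKO libraries 477 and 333, and it was not called without WT replicate 2 (0.66), under quantile normalization (1.71) or by DESeq2 (1.60). The others were Egr3 at -98324 bp (7.78 and 10.2 to 32.9 and 22.3) and Nr4a1 at -10629 bp (0.94).

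In Olig2+ nuclei the genes moved apart: on summed start-site tags Arc and Nr4a1 rose and Egr3 and Npas4 fell, and single start-site peaks rose at Nr4a3 and fell at Egr2. Of 18 start-site peaks 4 rose and 3 fell, against 12.7% and 7.56% of 20120. Of 82 distal peaks 9 rose and 4 fell, against 6.69% and 13.0% of 62442, and their median was 0.17 where that of all distal peaks was -0.13. The median of the 82 was above 0, and that of all distal peaks below 0, under all 7 scalings and tests. The start-site sums of Nr4a3 (0.17, adjusted p = 0.24) and Egr2 (-0.20, adjusted p = 0.16) did not pass, so 2 of 9 rose and 2 fell (19.7% of 11968 genes rose and 10.7% fell). On distal sums Arc, Egr2, Nr4a1 and Nr4a3 rose and 0 fell (11.1% of 11925 rose and 25.8% fell). Without WT replicate 1 or 2 there were 2 and 4 start-site calls and 5 and 5 distal calls, and without SgshKO replicate 2 there were 4 start-site calls. The neuronal markers, 4 of 7 with a peak, summed to 160 and 170 normalized tags in WT and 169 and 159 in SgshKO in these libraries. Other lists moved with genotype. Oligodendrocyte markers were lower in both SgshKO libraries (2271 and 2272, against 2706 and 2668 for WT). Precursor markers were higher (306 and 299, against 260 and 260). The part of these shifts in the changes of this sort was not tested.

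Arc had one of the most open start sites measured here. At -121 bp (chr15:74672589-74672794) it held 211 and 244 normalized tags in WT and 307 and 312 in SgshKO (0.45 ± 0.08 SE, adjusted p = 3.5e-04). Nr4a1 at -84 bp held 74.7 and 68.5 against 116 and 132 (0.78 ± 0.13 SE, adjusted p = 7.4e-05), and at -672 bp 8.82 and 10.7 against 20.9 and 19.9 (1.00, adjusted p = 0.012). Nr4a3 rose at -527 bp (54.98 and 47.0 to 63.9 and 76.4; 0.45, adjusted p = 0.045), but its peak at -234 bp did not pass (74.2 and 72.6 against 69.5 and 67.1). Both SgshKO libraries were above both WT libraries at each of the 4 called peaks. The sums of Arc and Nr4a1 were called under each scaling run on sums, in each fit without 1 library and by both count tools.

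The 3 lower start-site peaks were less open in WT than the rising peak of Arc, though not than every rising peak. Egr2 at -87 bp fell from 73.65 and 70.1 to 46.7 and 47.9 (-0.59, adjusted p = 0.0082). Egr3 at -632 bp fell from 25.9 and 16.9 to 12.9 and 7.31 (-1.03, adjusted p = 0.016). Npas4 at +795 bp, inside its gene, fell from 30.1 and 29.7 to 19.1 and 17.3 (-0.69, adjusted p = 0.033), and this call was lost under median-of-ratios, quantile and edgeR TMM scaling and in 3 of the 4 fits without 1 library. DESeq2 called none of these 3, Egr2 was also lost without WT replicate 1 or 2, and Egr3 without WT replicate 1 or SgshKO replicate 2. Fos at -38 bp (39.4 and 32.7 against 36.9 and 38.5) and Egr1 at -365 bp (129 and 140 against 134 and 134) overlapped between genotypes.

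Distal changes in Olig2+ nuclei were led by Fos and the Nr4a genes. Fos rose at +52130 bp (2.59 and 5.11 to 10.45 and 15.95; 1.57, adjusted p = 0.0031) and at +53179 bp (5.71 and 3.58 to 16.0 and 14.0; 1.52, adjusted p = 0.0020), and fell at +48891 bp (42.0 and 49.1 to 27.7 and 23.3; -0.82, adjusted p = 0.0047). Between them, the strong peak at +50790 bp rose from 279 and 260 to 335 and 334 (0.31, adjusted p = 0.0045). Nr4a1 rose at +1973 bp by 1.38 and fell at +4496 bp by 0.67, both in its introns. Nr4a3 at -1928 bp (chr4:48043234-48043520) rose from 253 and 246 to 343 and 363 (0.50 ± 0.08 SE, adjusted p = 2.9e-05), the element that fell in neurons. Egr2 at -98456 bp rose from 30.1 and 32.2 to 55.9 and 47.9 (0.72, adjusted p = 0.0072). Fosb fell at +8741 bp (26.5 and 23.5 to 11.1 and 11.3; -1.09, adjusted p = 0.0038) and at +1328 bp (-0.57). DESeq2 did not call Fos +48891 bp, Fosb +8741 bp, Egr2 -98456 bp or Nr4a1 +4496 bp. Without WT replicate 1, Fos +52130 bp, Fosb +8741 bp, Egr2 -98456 bp and Nr4a1 +4496 bp were not called, and without WT replicate 2, Fos +48891 bp and both Nr4a1 peaks were not; without SgshKO replicate 1, Egr2 -98456 bp and Nr4a1 +4496 bp were not.

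Whether the genotype change differed between sorts was tested on 30 peaks of 9 genes that the 3 tables share, in 1 model of the 12 libraries, each centred on its median over 16761 shared peaks. All libraries share 1 estimate of each peak's spread, although the sorts differ in spread. At Arc -120 bp the SE was 0.29 in the fit of microglia alone and 0.12 in that of NeuN+ nuclei. The SEs and p-values below may thus be too small against microglia and distorted between the nuclei. Between NeuN+ and Olig2+ nuclei 5 of the 30 differed, against 10.1% of all shared peaks. Nr4a1 at -92 bp differed by -1.04 ± 0.19 SE (adjusted p = 0.0041), Arc at -120 bp by -0.98 ± 0.19 SE (adjusted p = 0.0051), Nr4a3 at -225 bp by -0.78 ± 0.24 SE (adjusted p = 0.045) and Nr4a3 at -1919 bp by -0.68 ± 0.18 SE (adjusted p = 0.024), each lower in neurons. Fosb at +8755 bp differed by 1.34 ± 0.40 SE (adjusted p = 0.039), its loss being that of Olig2+ nuclei. Between NeuN+ nuclei and microglia 3 differed, against 28.2% of shared peaks: Arc at -120 bp by -1.11 ± 0.19 SE (adjusted p = 1.9e-04), Fosb at -328 bp by -0.65 ± 0.24 SE (adjusted p = 0.045) and Nr4a3 at -1919 bp by -0.52 ± 0.18 SE (adjusted p = 0.034). All 3 were lower in neurons, but of 6 under quantile normalization within a sort 5 were higher and 1 lower, and of 4 without the lowest 25% of peaks, and of 4 without microglia SgshKO replicate 2, 3 were higher and 1 lower. The Arc promoter differed in both comparisons, with each library's median taken out by the centring. Leaving out 1 library moved these counts: the 5 fell to 2 without any 1 of the 2 NeuN+ WT or 4 Olig2+ libraries and rose to 9 and 8 without microglia SgshKO replicate 1 and 2, while the 3 fell to 1 without any 1 WT library or NeuN+ SgshKO replicate 1, were 2 without NeuN+ SgshKO replicate 2, and rose to 8 without microglia SgshKO replicate 1.

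**Figure D5:**
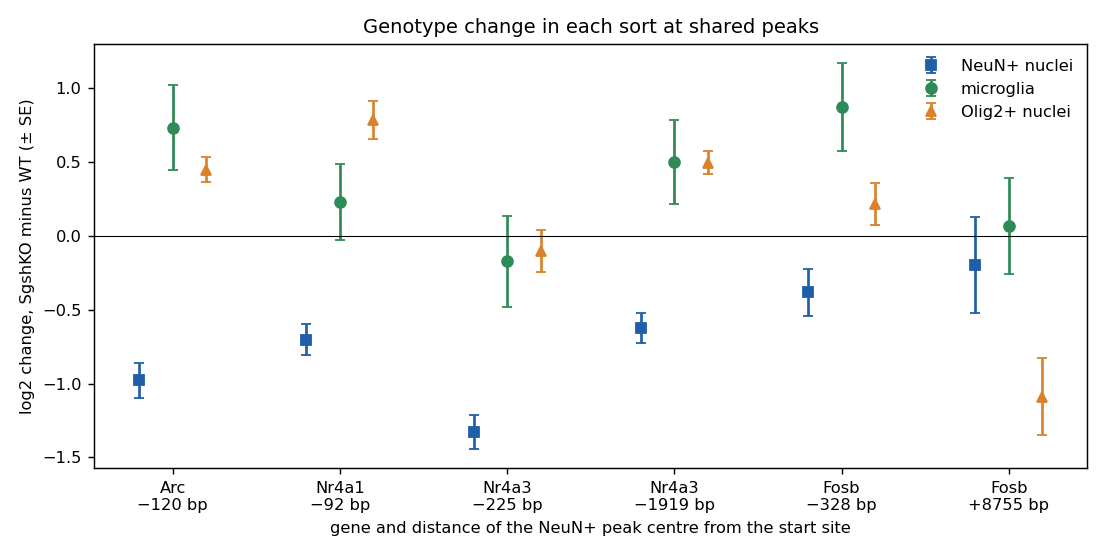
Log2 change (SgshKO minus WT, ± SE, 2 libraries per genotype) in each sort at the 6 shared peaks whose change differed between sorts, named by gene and distance from the start. The values are those of each sort's own fit, before the centring used in the test of the difference; at Arc the change is -0.98 in NeuN+ nuclei, 0.73 in microglia and 0.45 in Olig2+ nuclei.

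In WT the order of the sorts differed from gene to gene, set side by side per length because the tables were made separately and were not tested against each other. Values are per mapped tag. The share of WT tags in peaks was 55.8% and 48.7% in microglia, 26.7% and 25.9% in NeuN+ and 31.8% in Olig2+ nuclei. The orders below hold for this scaling only and may turn if values are taken per tag in peaks. In the peak nearest the start, Arc held 102 and 118 normalized tags per 100 bp in Olig2+ nuclei, 90.4 and 78.7 in NeuN+ nuclei and 64.2 and 52.0 in microglia. Egr1 held 144 and 123 in microglia, then 85.1 and 75.8 in neurons and 55.2 and 59.7 in the Olig2+ sort, and Nr4a1 had the same order (81.8 and 91.3; 65.2 and 60.7; 31.5 and 28.9). Fos was far higher in microglia (76.5 and 83.7) than in Olig2+ (15.5 and 12.8) and NeuN+ nuclei (14.9 and 13.3), and those last 2 overlapped. Egr2 was highest in microglia (86.8 and 65.3), then Olig2+ (34.7 and 33.0) and NeuN+ nuclei (16.3 and 14.3). Npas4 (79.5 and 70.8 in NeuN+, 12.3 and 12.1 in Olig2+ nuclei) and Nr4a3 (79.2 and 81.6; 41.6 and 45.3 in microglia; 34.7 and 33.9 in Olig2+ nuclei) were highest in neurons, and Egr4 had a peak only there. The nearest peaks of Egr1 and Npas4 lie at different positions in the sorts, and neither gene has a start-site peak that all 3 share. For Npas4 the NeuN+ value is from its promoter and the Olig2+ value from inside the gene. The orders given for Egr1 and Npas4 thus set different elements side by side. The nearest peaks of Fosb and Egr3 also lie at different positions, but these genes were compared at the element all 3 share. For Fosb, microglia at -314 bp (36.5 and 34.4) overlapped Olig2+ nuclei at -333 bp (36.5 and 31.8), and NeuN+ nuclei at -328 bp were lower (22.2 and 23.6). For Egr3, microglia at -571 bp (97.5 and 88.8) were highest, then NeuN+ nuclei at -590 bp (21.2 and 19.3) and Olig2+ nuclei at -632 bp (10.4 and 6.75), with no overlap.

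Other genes of the same response were counted from lists. In NeuN+ nuclei 39 of 67 start-site peaks of 25 other immediate-early genes fell and 1 rose (median -0.72), 18 of 32 of late-response genes such as Bdnf fell and 0 rose (median -0.71), and 33 of 62 of upstream regulators such as Creb1 and Srf fell and 2 rose (median -0.58). All 3 medians stood below that of all start-site peaks, -0.53, of which 44.9% fell and 1.74% rose. The lists were counted only as scaled here, and those shares depended on the scaling. Among them Nptx1, a secreted synapse organizer, fell from 67.4 and 49.7 to 17.4 and 17.8 at +47 bp (-1.66). At distal peaks of NeuN+ nuclei the lists had 51 lower and 22 higher of 281, 22 and 26 of 115, and 35 and 27 of 299. Of all distal peaks there 12.6% were lower and 12.6% higher. In microglia the start-site calls were 6 higher and 2 lower of 74, 0 of 10, and 2 higher and 0 lower of 53. Of all start-site peaks there 8.59% were higher and 1.20% lower. Crtc1, a CREB coactivator, rose from 94.2 and 104 to 470 and 430 at -153 bp (2.17, limma, adjusted p = 1.2e-06). Distal calls in microglia were 25 higher and 18 lower of 445, 1 and 0 of 38, and 2 and 4 of 194, against 3.81% and 2.69% of all. In Olig2+ nuclei start-site calls were 10 higher and 4 lower of 58, 0 and 1 of 5, and 7 and 4 of 39, against 12.7% and 7.56% of all. Distal ones were 16 higher and 16 lower of 172, 1 and 1 of 16, and 2 and 16 of 76, against 6.69% and 13.0% of all.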

How the data were processed

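ATAC-seq peak tables of 12 libraries were used, 1 table per sort, each holding the peaks of its 4 libraries. Per the submitters' processing notes, Bowtie2, HOMER and the mm10 build were used (versions: not given in the sources used here). Deposited signal is tags per peak scaled by the authors to 10000000 mapped tags, per the file headers, and whole reads were recovered from 100% of values (within 0.01). From these, log2(normalized tags + 1) was fitted with limma 3.58.1 (R 4.3.3; lmFit and eBayes with a trend) over all peaks of a table, with Benjamini-Hochberg adjustment and a threshold of 0.05. A fold is on that log2(value + 1) scale, which understates changes of weak peaks. Tags summed per gene and class were fitted likewise, and shared peaks overlapped by at least 50% of each. Alternatives were 2 other pseudocounts, a filter on the lowest 25%, other scalings, edgeR 4.0.16 and DESeq2 1.42.0 on the recovered reads, a replicate block, and each library left out. In simulated data of the same size, a small set of peaks at or above the median level was changed. Of these, limma recovered 35% changed 2-fold in NeuN+ nuclei, 16% in microglia and 68% in Olig2+ nuclei, and 91%, 83% and 97% of those changed 4-fold. Far more peaks were called in the data than were changed in the simulation, so these shares do not give the power here. Peaks without a gene name (12, 42 and 23 in NeuN+ nuclei, microglia and Olig2+ nuclei) were kept in the fits. Named peaks are each gene's nearest start-site and strongest distal peak and, per table, the 3 largest increases and 3 largest decreases among called distal peaks, and for other lists the most changed called start-site peaks; the others named were chosen after their values were seen. The members and lists were chosen with earlier results of these data known.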

Additional observations from a re-analysis of the deposited data

Results flagged for a closer look

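The genotype change differed between NeuN+ and Olig2+ nuclei at 5 shared peaks by the test of the difference (limma, adjusted p under 0.05). It differed by -1.04 at Nr4a1 -92 bp, where NeuN+ nuclei changed by -0.70 and Olig2+ nuclei by 0.78 before centring, and by -0.98 at Arc -120 bp (-0.98 against 0.45). It differed by -0.78 at Nr4a3 -225 bp (-1.33 against -0.10) and by -0.68 at Nr4a3 -1919 bp (-0.62 against 0.50). At Fosb +8755 bp it differed by 1.34, with -0.20 in NeuN+ and -1.09 in Olig2+ nuclei.

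Between NeuN+ nuclei and microglia the change differed by -1.11 at Arc -120 bp (-0.98 against 0.73), by -0.52 at Nr4a3 -1919 bp (-0.62 against 0.50) and by -0.65 at Fosb -328 bp (-0.38 against 0.87).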

How the results depend on the processing

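Over 72 named peaks, 39 of them called, 14 alternatives gave 1002 values: 825 kept direction and side of the threshold, 122 lost the call, 18 gained one and 37 changed sign, none of the last at a called peak. The causes were not tested. Without 1 library, calls ranged from 0 to 8 (13 as reported) at NeuN+ start sites, 0 to 20 (41) at NeuN+ distal peaks, 8 to 9 (10) and 4 to 8 (8) on NeuN+ start-site and distal sums, 0 to 6 (1) and 1 to 44 (19) at microglial start-site and distal peaks, 0 to 1 (1) and 0 to 1 (0) on microglial sums, 2 to 7 (7) and 5 to 13 (13) at Olig2+ start-site and distal peaks, 2 to 4 (4) and 2 to 6 (4) on Olig2+ sums, 2 to 9 (5) and 1 to 8 (3) for differences of NeuN+ nuclei from Olig2+ nuclei and microglia, and 1 to 21 (13) in the microglial window. In-peak sum scaling gave 4 NeuN+ start-site sums, 4 and 44 microglial start-site and distal peaks, 4 and 2 microglial sums and 22 window peaks. Median-of-ratios scaling gave 4, 3, 33, 2 and 2 for all but the window, and edgeR TMM gave 4 NeuN+ sums, 3 and 36 microglial peaks and 2 microglial distal sums. Quantile normalization gave 5 and 19 NeuN+ peaks, 4 and 4 NeuN+ sums, 4 and 36 microglial peaks, 4 and 3 microglial sums and 20 window peaks. Start-site scaling gave 7 NeuN+ start-site and 3 and 30 microglial peaks. DESeq2 gave 5 and 7 NeuN+ peaks, 0 and 4 NeuN+ sums, 12 microglial distal peaks, 1 microglial distal sum, 2 and 2 Olig2+ peaks, 2 Olig2+ start-site sums and 7 window peaks. An adjusted p of 0.01 gave 21 NeuN+ distal peaks, 0 and 9 microglial peaks, 0 microglial start-site sums, 3 and 8 Olig2+ peaks, and 2 and 1 differences between sorts. A 500 bp limit gave 7, 0 and 3 start-site calls in NeuN+ nuclei, microglia and Olig2+ nuclei, promoter-TSS annotation gave 0 in microglia and a pseudocount of 5 gave 2 there. Dropping the lowest 25% gave 2 Olig2+ start-site sums and 7 window peaks. For the differences between sorts, no centring gave 11 and 13, quantile normalization within a sort 3 and 6, and 80% overlap 3 and 1. The replicate numbers do not pair the samples (correlations 0.0036, 0.042 and 0.00069 in NeuN+ nuclei, microglia and Olig2+ nuclei); with the replicate block, microglia had 3 start-site and 42 distal calls and 2 and 1 called sums.

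Of sign changes in NeuN+ nuclei, Fos -18525 bp became 0.18, 0.10, 0.45, 0.43, 0.11 and 0.10, and Egr3 -75516 bp became 0.23, 0.15, 0.36, 0.47, 0.18 and 0.18, under in-peak sum, median-of-ratios, quantile, start-site, edgeR TMM and DESeq2 scaling, and the latter ran from -0.28 to 0.16 without 1 library. Under start-site scaling Fos -34 bp became 0.0768, Fosb -328 bp 0.15 and Egr2 -86 bp 0.054. In microglia Fos +55 bp became 0.018, 0.0044 and 0.0107 under median of ratios, edgeR and DESeq2 and ran from -0.16 to 0.0832 without 1 library. Quantile normalization gave Fosb -6616 bp -0.11, Egr1 -4803 bp -0.38, Egr3 -20241 bp -0.35, Nr4a1 -20292 bp -0.39 (-0.0247 by in-peak sum), Nr4a1 -58 bp -0.25 and Nr4a3 -2371 bp -0.0392. In Olig2+ nuclei Egr1 -365 bp became 0.0147 by in-peak sum and 0.0629, 0.061 and 0.0625 under median of ratios, edgeR and DESeq2. Without 1 library it ran from -0.0605 to 0.0509, Fos -38 bp from -0.0623 to 0.20, Fosb -10051 bp from -0.36 to 0.0482 and Egr3 -2466 bp from -0.0309 to 0.18. Changes of weak peaks are limited by depth, with medians of 17 to 39 reads per peak.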
